A study of Rattus norvegicus with 6 samples.

Results

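Slc12a1, Slc12a3, Umod, Kcnj1, Kcnj10, Bsnd, Ppp1r1b and Pvalb, 8 genes of salt transport in the thick ascending limb and the distal convoluted tubule, were followed in the renal cortex of phenylbutazone-treated and vehicle-treated rats. They were found through the accession printed for each probe, matched without its version to RefSeq symbols, which gave 17 of the 61537 non-control probes of the array, and 7 of the 8 genes were among the 29938 genes tested. Phenylbutazone, an anti-inflammatory drug that inhibits the cyclooxygenases, was given to 3 male Sprague-Dawley (Crl:CD(SD)) rats at 200 mg/kg/day for 4 weeks. Another 3 males of the same strain received corn oil, the vehicle, for 4 weeks. The animals were bought at an age of 5 weeks, and total RNA of each animal was hybridised to its own one-colour Agilent array.

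The thick ascending limb takes up salt without water and so sets the osmotic gradient of the medulla, while the distal convoluted tubule adjusts how much of the remaining sodium chloride is reclaimed. In both segments a sodium-chloride cotransporter on the urinary side is driven by the sodium pump, and potassium and chloride channels recycle or release the ions that enter. Prostaglandin E2, a cyclooxygenase product, is known to restrain salt uptake in the thick limb, and sodium retention is a known effect of cyclooxygenase inhibitors.

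Levels are given as the log2 of the processed spot intensity minus the log2 of that array's 75th percentile, so that 0 is the 75th percentile of the array and 1 unit is a doubling. Levels of different probes are not on one scale and were not set against each other. Slide 2 carried the 3 phenylbutazone arrays together with vehicle array 3, and slide 1 carried vehicle arrays 1 and 2. The share of probes well above background was 65.2% to 68.4% per array, and 75th percentiles of the intensity ran from 891 to 1003. Vehicle array 3 stood apart from the other vehicle arrays on the first principal component (29.4% of the variance): the phenylbutazone arrays scored -18.9 to -1.10, vehicle array 3 scored -52.3, and vehicle arrays 1 and 2 scored 41.2 and 36.3. On the second (25.7%), the vehicle arrays scored -40.5 to -20 and the phenylbutazone arrays 12.1 to 39.8. Vehicle array 3 held the lowest value of the 6 arrays for 34.3% of the genes tested, against 11.7% to 14.6% on each of the other arrays. The 8 genes are therefore given array by array, and also with slide as a block, a fit in which vehicle array 3 is the only vehicle array compared with phenylbutazone. With 3 arrays a group, precision was limited by their number throughout. Since whole cortex was sampled, fewer cells of a segment and less RNA per cell cannot be told apart.

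The promoters of Slc12a1, Umod and Kcnj10 are shown because the first pair were lowest on vehicle array 3 on each of their probes and the last was the one gene whose groups lay apart, on a faint probe. Slc12a3 was also lowest on vehicle array 3, but on 1 of its 3 probes, and its window is not shown. The windows are the 250 bases before the start of each gene in RefSeq's table for the build GRCr8, at chr3:132859340-132859589 (+ strand) for Slc12a1, chr1:183261017-183261266 (- strand) for Umod and chr13:87334260-87334509 (+ strand) for Kcnj10. The Umod window lies within the annotated bounds of the gene, and Slc12a1 is shown for the first of its 2 starts. Capitals mark matches on either strand to the core of the TATA box, TATAAA, or to the half-site of the estrogen-related receptors, AAGGTCA. None of the matches overlap.
Slc12a1: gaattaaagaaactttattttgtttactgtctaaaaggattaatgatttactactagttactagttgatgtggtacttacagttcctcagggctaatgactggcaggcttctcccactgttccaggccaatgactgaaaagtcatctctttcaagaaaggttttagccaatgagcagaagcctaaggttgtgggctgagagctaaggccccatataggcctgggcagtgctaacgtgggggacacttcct
Umod: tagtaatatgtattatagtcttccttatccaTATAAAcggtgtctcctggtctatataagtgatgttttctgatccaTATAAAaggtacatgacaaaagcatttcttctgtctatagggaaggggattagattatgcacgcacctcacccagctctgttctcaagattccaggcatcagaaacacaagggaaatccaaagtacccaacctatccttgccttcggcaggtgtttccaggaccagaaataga
Kcnj10: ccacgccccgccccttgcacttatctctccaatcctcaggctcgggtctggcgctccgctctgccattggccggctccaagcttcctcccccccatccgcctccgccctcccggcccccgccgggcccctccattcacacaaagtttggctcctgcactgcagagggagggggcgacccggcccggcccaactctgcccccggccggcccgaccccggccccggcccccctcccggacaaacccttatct

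The Umod window held TATAAA 219 and 173 bases before the start, a motif found in 12.9% of the 33469 promoter windows of the table. The Slc12a1 and Kcnj10 windows held neither motif, the estrogen-related receptor half-site being present in 3.99% of all windows. The GC content was 72.4% for Kcnj10, 43.6% for Slc12a1 and 40.8% for Umod. Of the 8 genes, 7 were in the promoter table with 9 windows, and TATAAA also stood 32 bases before the Slc12a3 start and 41 bases before the first of the 2 Kcnj1 starts. A match is a description of the letters in the window.

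The comparison of phenylbutazone with vehicle asks whether transcripts of this transport machinery differed after 4 weeks of dosing. None of the 7 tested genes passed limma's test at an adjusted p of 0.05, with adjusted p values of 0.309 to 0.978, and the share of all genes tested that passed was 0%. At an unadjusted p under 0.05 there was 1 of the 7, Kcnj10, with phenylbutazone lower, against 12.2% of all genes (3657 of 29938), 5.97% higher and 6.24% lower. Kcnj10 was also the only one of the 7 whose groups did not overlap, where 21.5% of all genes had groups that lay apart, 12.1% with phenylbutazone higher and 9.39% lower. Both counts rest on a faint probe that passed the background test in 1 of 3 phenylbutazone hybridisations and met the filter through the vehicle arrays. Of the 7 genes, 3 had a mean above vehicle and 4 a mean below it, with a median log2 difference of -0.17 against 0.015 over all genes tested. Kcnj10, on the same faint probe, is among those 4. Where all 6 arrays had to be well above background, Kcnj10 dropped out and the median of the other 6 genes was -0.079. With slide as a fixed block the median of the 7 was 0.15.

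**Figure D1:**
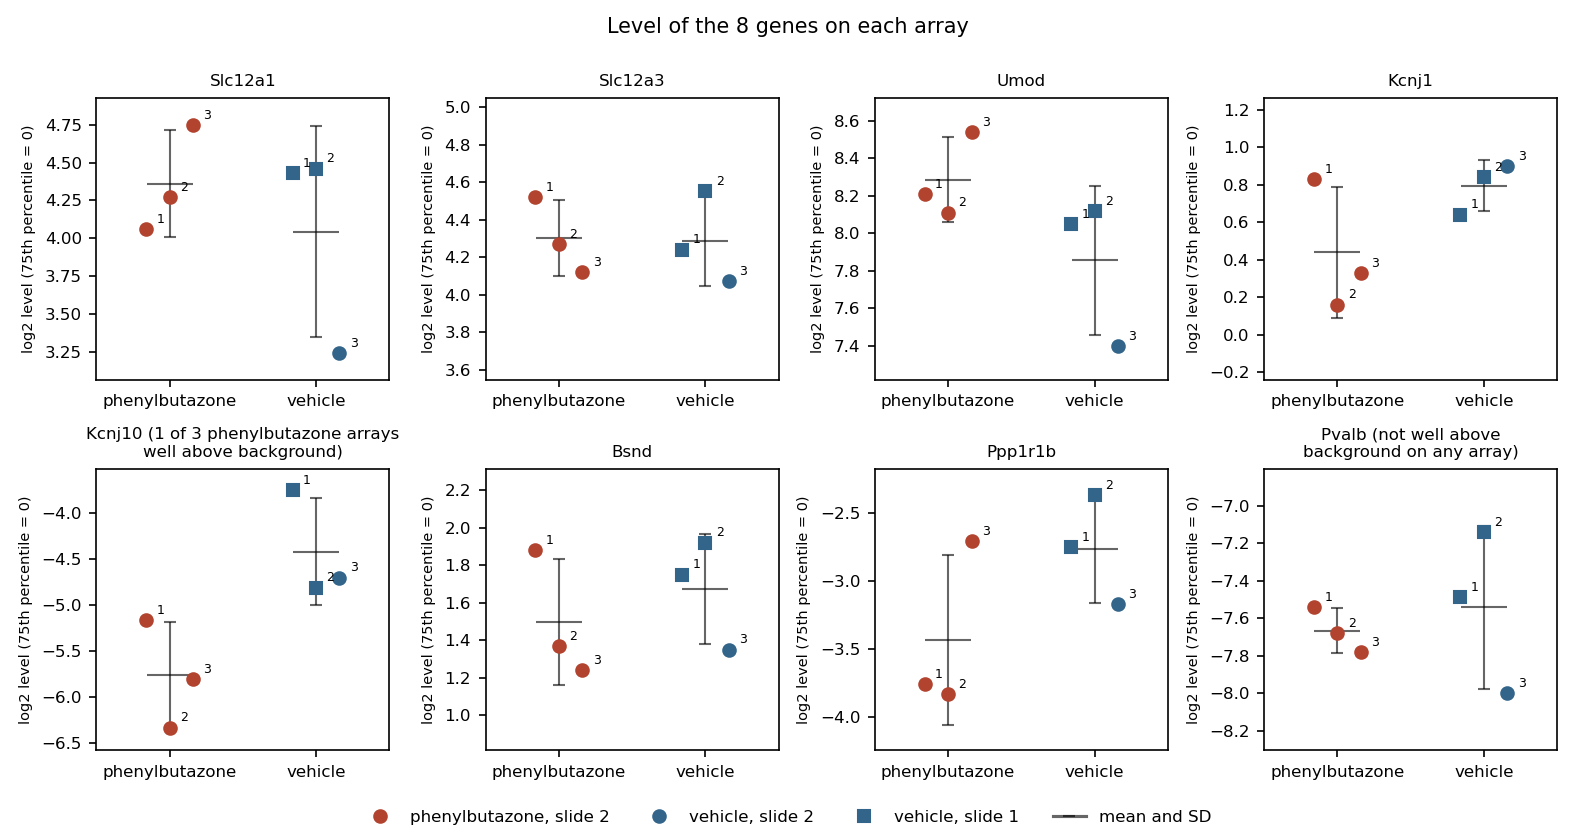
Log2 level of each of the 8 genes on every array (y axis, 0 is the array's 75th percentile), with phenylbutazone left of vehicle, circles for slide 2, squares for slide 1, the replicate number beside each point, and a bar for the mean and SD of 3 arrays. Vehicle array 3 is the lowest point for Slc12a1, Slc12a3 and Umod, and for Pvalb, whose values are not well above background; the groups lie fully apart in the Kcnj10 panel alone.

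Slc12a1 encodes the sodium-potassium-chloride cotransporter NKCC2, the entry step of the thick ascending limb and the target of loop diuretics. Its log2 levels were 4.06, 4.27 and 4.75 on phenylbutazone arrays 1, 2 and 3, against 4.43, 4.46 and 3.24 on vehicle arrays 1, 2 and 3. The groups overlapped, and vehicle array 3 lay below all other arrays. The log2 difference was 0.32 ± 0.37 (SE, n = 3 per group; 95% interval -0.58 to 1.22), with a limma adjusted p of 0.758. With slide as a fixed block it was 1.12 ± 0.28 (interval 0.38 to 1.85, adjusted p = 0.0801), and without vehicle replicate 3 it was -0.084, so that 1 array decided both its size and its sign. Vehicle array 3 lay 1.2 log2 units below the mean of the other vehicle arrays (a difference of -1.2), and 2.46% of all genes tested had a lower value of that difference.

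Umod encodes uromodulin, the most abundant protein of normal urine, secreted by the thick ascending limb and the early distal tubule. Umod had log2 levels of 8.21, 8.11 and 8.54 on phenylbutazone arrays, against 8.05, 8.12 and 7.40 on vehicle arrays 1, 2 and 3. Of the phenylbutazone arrays, 2 lay above every vehicle array, and the lowest of them fell within the vehicle range. For Umod the difference was 0.43 ± 0.23 (SE, n = 3 per group; interval -0.12 to 0.98), 1.35-fold, with a limma adjusted p of 0.491. With slide as a fixed block the Umod difference was 0.88 ± 0.19 (interval 0.39 to 1.37, adjusted p = 0.0661), and without vehicle replicate 3 it was 0.20. Slc12a1 and Umod were the 2 genes of the set with an unadjusted p under 0.05 in that block fit, where 31.6% of all genes had one and 0% passed after adjustment. The same 2 genes had one with slide as a random block (0.83 for Slc12a1 and 0.72 for Umod, adjusted p 0.247 and 0.218), against 20.1% of all genes, and neither was among the 0.00334% of genes that passed in that fit.

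Both genes were lowest on vehicle array 3 and highest on phenylbutazone array 3, on each of their probes. The other Slc12a1 probe had a log2 level of 2.44 on vehicle array 3, against 3.55 and 3.62 on vehicle arrays 1 and 2, and its treatment difference was 0.20. The other Umod probe had 7.27 on vehicle array 3, against 8.0 and 8.04, with a treatment difference of 0.41. Once each probe was centred on its own mean, the Umod probes differed by a root mean square of 0.029 log2 units over the 6 arrays and the Slc12a1 probes by 0.084. Probes of a gene share the animal's RNA and the array, so they check the spot measurement and are not further animals.

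**Figure D2:**
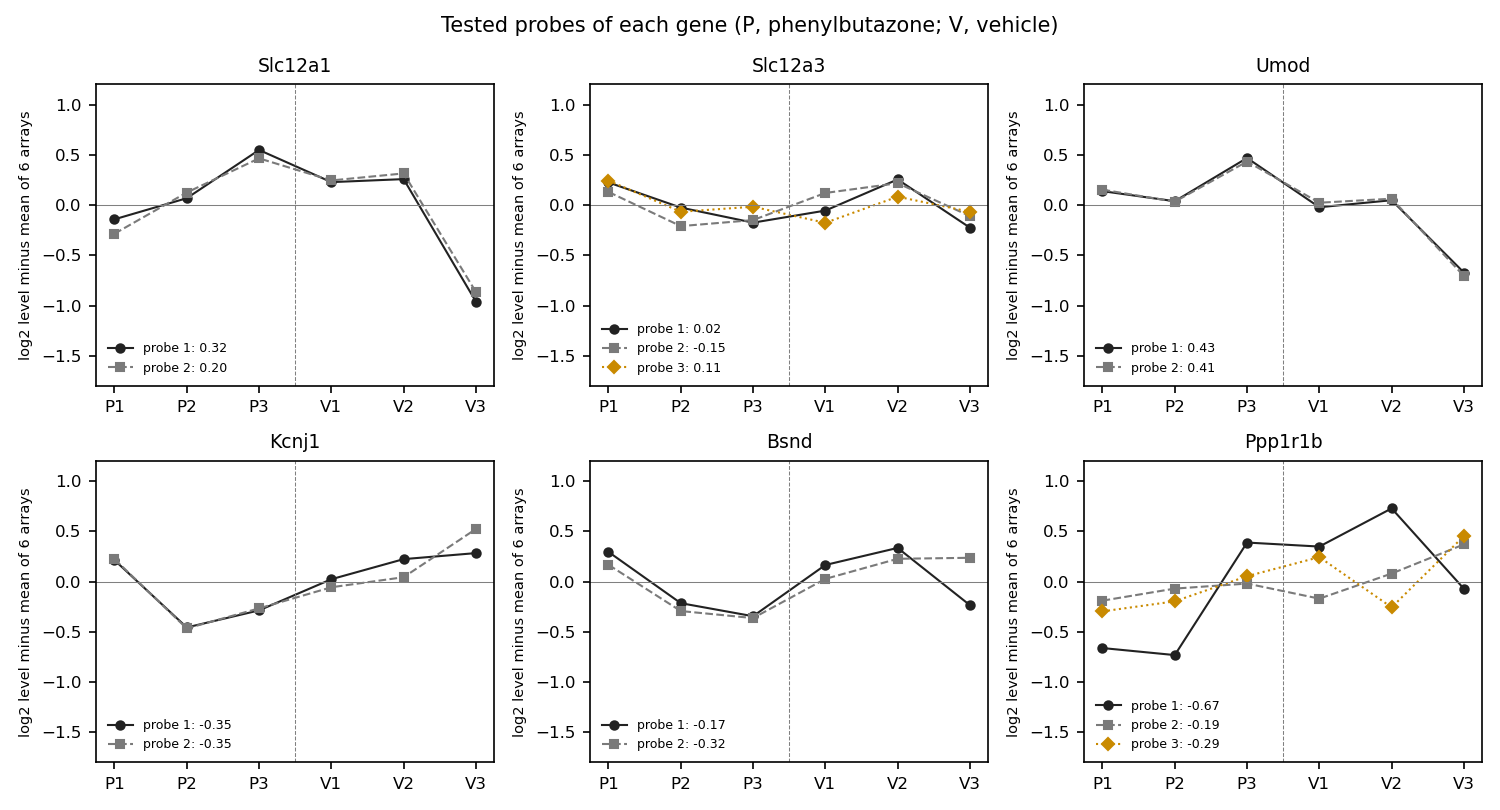
Log2 level of every tested probe minus its mean over the 6 arrays (y axis), for the 6 genes with at least 2 tested probes, with phenylbutazone arrays P1 to P3 left of vehicle arrays V1 to V3, a line joining the values of 1 probe, and the treatment difference of each probe in the legend. The Slc12a1 and Umod probes follow each other with a drop at V3, whereas the probes of Bsnd and Ppp1r1b part at V3.

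Kcnj1 encodes ROMK, the potassium channel on the urinary side that returns potassium to the lumen and so keeps NKCC2 supplied. The Kcnj1 levels on the log2 scale were 0.83, 0.16 and 0.33 on phenylbutazone arrays, against 0.64, 0.84 and 0.90 on vehicle arrays. Phenylbutazone arrays 2 and 3 lay below every vehicle array, and array 1 lay inside the vehicle range. The Kcnj1 log2 difference was -0.35 ± 0.19 (SE, n = 3 per group; interval -0.82 to 0.12, limma adjusted p = 0.505). It was -0.46 ± 0.29 with slide as a fixed block (interval -1.21 to 0.30, adjusted p = 0.340). The other Kcnj1 probe had the same difference, -0.35, with the same phenylbutazone array lowest.

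Bsnd encodes barttin, the subunit that carries the ClC-K chloride channels to the membrane on the blood side of thick limb and distal cells. Bsnd had log2 levels of 1.88, 1.37 and 1.24 on phenylbutazone arrays, against 1.75, 1.92 and 1.35 on vehicle arrays. The ranges overlapped, with 1 phenylbutazone array below every vehicle array. The Bsnd log2 difference was -0.17 ± 0.22 (SE, n = 3 per group; interval -0.72 to 0.37, limma adjusted p = 0.781), and with slide as a fixed block it turned to 0.15 ± 0.28 (interval -0.58 to 0.88, adjusted p = 0.745). The 2 Bsnd probes parted on vehicle array 3, which lay at -0.49 from the mean of the other vehicle arrays on one probe and at 0.11 on the other. On the second probe the levels were 1.25, 0.79 and 0.72 in phenylbutazone, against 1.11, 1.31 and 1.32 in vehicle, a difference of -0.32.

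Ppp1r1b encodes DARPP-32, which becomes an inhibitor of protein phosphatase 1 when protein kinase A phosphorylates it and which is known from thick limb cells as well as from neurons. On the log2 scale the Ppp1r1b levels were -3.76, -3.83 and -2.71 on phenylbutazone arrays, against -2.75, -2.37 and -3.17 on vehicle arrays. Phenylbutazone arrays 1 and 2 lay below every vehicle array, while array 3 lay within the vehicle range. The Ppp1r1b log2 difference was -0.67 ± 0.35 (SE, n = 3 per group; interval -1.53 to 0.19, limma adjusted p = 0.492). It was -0.27 ± 0.50 with slide as a fixed block (interval -1.59 to 1.06, adjusted p = 0.754). The other 2 probes were dim, well above background on 3 and 4 of the 6 arrays, and had differences of -0.19 and -0.29. They ranked the arrays differently, with vehicle array 3 highest on both.

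Slc12a3 encodes NCC, the thiazide-sensitive sodium-chloride cotransporter of the distal convoluted tubule. Slc12a3 had log2 levels of 4.52, 4.27 and 4.12 on phenylbutazone arrays, against 4.24, 4.55 and 4.07 on vehicle arrays. The groups covered nearly the same range, with vehicle array 2 highest and vehicle array 3 lowest. The Slc12a3 log2 difference was 0.016 ± 0.17 (SE, n = 3 per group; interval -0.40 to 0.43, limma adjusted p = 0.978), the smallest of the 7 in size. It was 0.24 ± 0.21 with slide as a fixed block (interval -0.31 to 0.78, adjusted p = 0.483). The other 2 probes gave -0.15 and 0.11, and Slc12a3 was the only one of the 6 genes with several tested probes whose probes differed in sign.

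Kcnj10 encodes Kir4.1, the potassium channel subunit on the blood side of distal tubule cells that sets their membrane voltage, together with the subunit encoded by Kcnj16. Its log2 levels were -5.16, -6.33 and -5.80 on phenylbutazone arrays, against -3.75, -4.81 and -4.70 on vehicle arrays. All 3 phenylbutazone values lay below all 3 vehicle values. The spot was faint, passing the background test in 1 of 3 phenylbutazone and 3 of 3 vehicle hybridisations, and the lowest level well above background on an array was -5.90 to -5.32. Phenylbutazone arrays 2 and 3 lay under that level on their own arrays (-5.58 and -5.66), and the probe met the filter through the vehicle arrays. The fit to the recorded values gave -1.34 ± 0.39 (SE, n = 3 per group), with an unadjusted p of 0.0134 and a limma adjusted p of 0.309, but with 2 of 3 phenylbutazone values not well above background neither the size nor its error is a measured quantity.

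The size of the Kcnj10 difference depended on how faint spots were treated. With each value raised to at least the lowest level well above background on its array, the difference was -1.05, and with normexp background correction, which adds an offset to every spot, it was -0.50. With slide as a fixed block it was -1.06, from the same faint spots, so that this size is likewise not a measured quantity. The other Kcnj10 probe passed the background test in 0 of 3 phenylbutazone and 1 of 3 vehicle hybridisations and was not tested. Its levels were -7.52, -7.70 and -7.79 in phenylbutazone, against -7.23, -5.63 and -5.51 in vehicle.

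Pvalb encodes parvalbumin, a calcium-binding protein that marks the early distal convoluted tubule. Its single probe was not well above background on any of the 6 arrays and was not tested. The recorded log2 values were -7.54, -7.68 and -7.78 on phenylbutazone arrays, against -7.49, -7.14 and -8.00 on vehicle arrays, all under the lowest level well above background, so no difference is given. Among the 8 genes the other markers of these segments, Umod, Slc12a1 and Slc12a3, were well above background on 6 of 6 arrays.

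**Figure D3:**
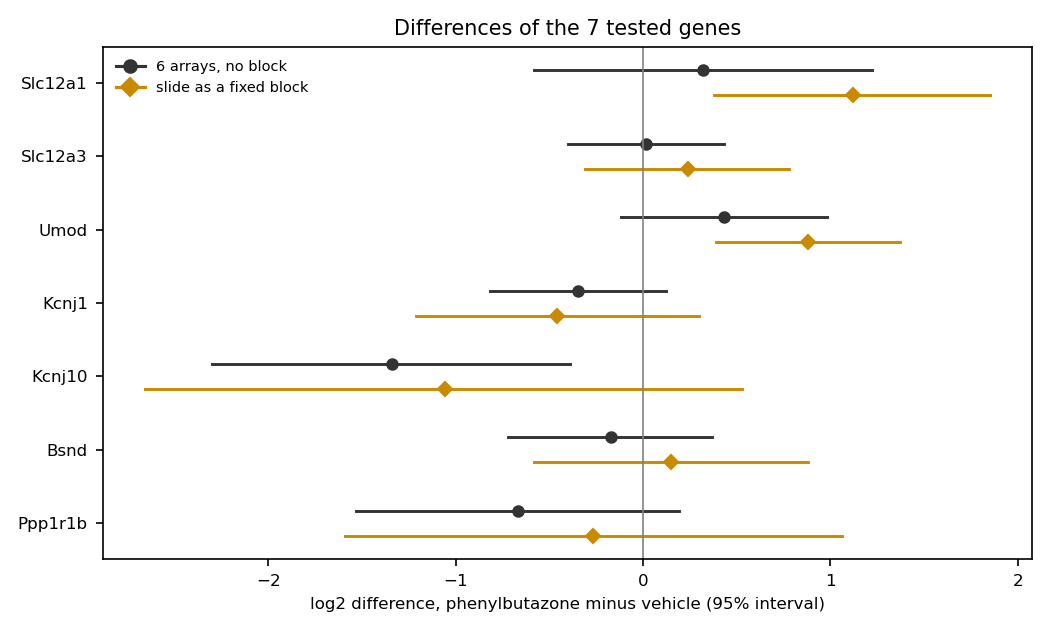
Log2 difference of phenylbutazone minus vehicle (x axis) for the 7 tested genes, with 95% intervals from limma, for the fit of 6 arrays without a block (black) and with slide as a fixed block (yellow). Without the block the Kcnj10 interval alone excludes 0, although 2 of its 3 phenylbutazone values are not well above background, and with the block those of Slc12a1 and Umod do, all before adjustment over the genes tested.

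By the smallest root mean square difference between centred levels over the 6 arrays, the 5 genes nearest to Slc12a1 among 12148 with a symbol were Spmip7 (0.119 log2 units), Slc10a2 (0.134), Klri2 (0.140), Tyro3 (0.145) and Bhmt (0.145). All 5 were lowest on vehicle array 3, which lay at -1.29 to -0.89 log2 units from the mean of the other vehicle arrays. That drop follows from choosing them by likeness to Slc12a1. Klri2 and Spmip7 were faint, at -5.92 and -5.72 on vehicle array 3, where the lowest level well above background was -5.90. Slc10a2, which encodes the apical sodium-bile acid transporter, had levels of 0.45, 0.82 and 1.16 in phenylbutazone, against 0.66, 0.62 and -0.53 in vehicle. Those nearest to Slc12a3 were Wee1 (0.0325), Ccng1 (0.0366), Higd1a (0.0464), Kcna6 (0.05) and Mien1 (0.0525), with treatment differences of -0.040 to 0.043. Likeness over 6 arrays is a description of these arrays.

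Other genes of the same machinery were taken from 6 lists by role, holding 89 genes besides the 8, of which 73 were tested. None passed limma's test over all genes in either direction (0 of 73), and 7 had an unadjusted p under 0.05, 4 with phenylbutazone higher and 3 lower, against 12.2% of all genes. The groups lay apart for 13 of the 73 (17.8%), 9 higher and 4 lower, against 21.5% of all genes. Their median log2 difference was 0.0038, and 0.13 with slide as a fixed block. Vehicle array 3 held the lowest value for 34 of the 73, 46.6%, against 34.3% of all genes.

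**Figure D4:**
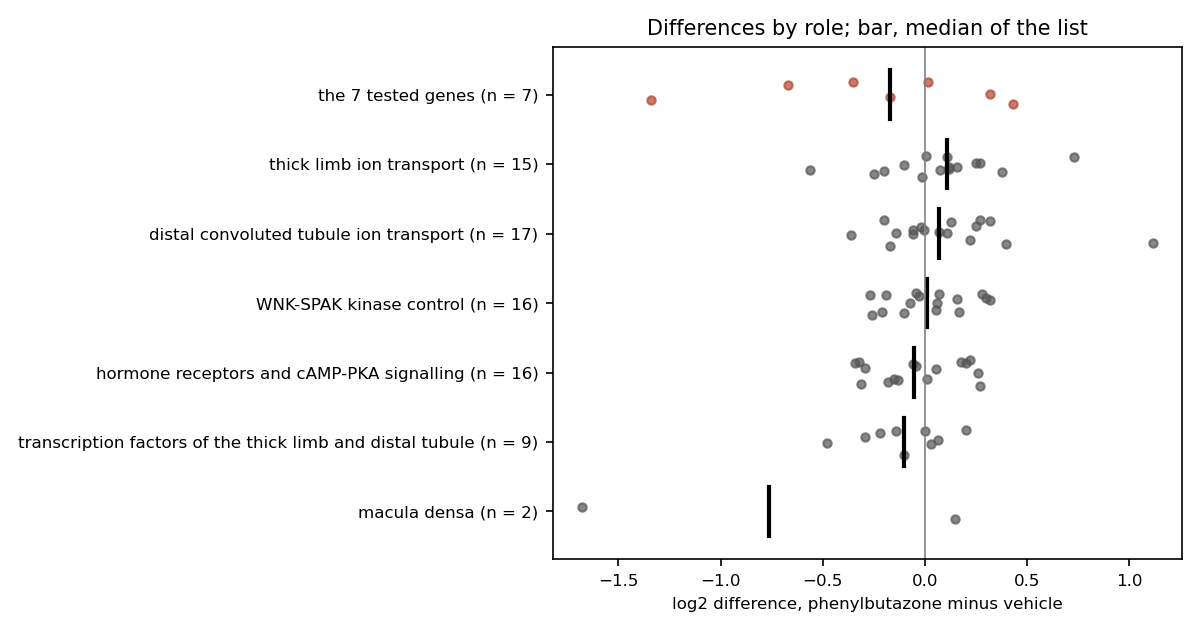
Log2 difference of phenylbutazone minus vehicle (x axis) for the 7 tested genes and for the tested genes of each list by role, 1 point per gene, with a bar at the median. The medians of the lists with at least 9 tested genes lie between -0.10 and 0.11, and no point passed the test over all genes.

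Of 15 tested genes of thick limb ion transport, 10 were higher and 5 lower, where 52.8% of all genes were higher. Vehicle array 3 held the lowest value for 9 of the 15 (60.0%), against 34.3% of all genes. The median log2 difference of the 15 was 0.11, and 0.31 with slide as a fixed block. The 3 of smallest p, none of which passed, were Slc4a2, which encodes a chloride-bicarbonate exchanger, Kcnma1, which encodes the BK potassium channel, and Kcnj16, which encodes the Kir5.1 partner of Kir4.1. Kcnj16 had log2 levels of 5.06, 4.82 and 4.80 in phenylbutazone, against 4.64, 4.68 and 4.54 in vehicle, a difference of 0.27 ± 0.11 (limma adjusted p = 0.409). Its groups lay apart with phenylbutazone higher, as did those of 12.1% of all genes. Slc4a2 stood at -0.25 ± 0.094 (adjusted p = 0.381). Kcnma1 stood at -0.56 ± 0.22 (adjusted p = 0.393), but its other tested probe stood at 0.80, and with slide as a fixed block the value of the first was -0.076.

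Of 17 tested genes of distal convoluted tubule ion transport, 9 were higher and 8 lower, with a median of 0.069, and 0.24 with slide as a fixed block. Trpv5, the gene of the calcium channel on the urinary side of distal cells, had log2 levels of -1.83, -0.84 and -0.93 in phenylbutazone, against -2.51, -2.28 and -2.16 in vehicle. The groups lay apart, and the difference was 1.12 ± 0.28 (limma adjusted p = 0.284), with 0.94 on the other tested probe and 0.95 with slide as a fixed block. Atp2b1, which encodes a calcium pump, stood at 0.40 ± 0.10 (adjusted p = 0.296), and its other 3 probes stood at 0.077 to 0.36. The third gene of smallest p was again Kcnj16.

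The WNK kinases, acting through SPAK and OSR1, phosphorylate NKCC2 and NCC and so switch them on. Of the 16 tested genes of that control, 8 were higher and 8 lower, with a median of 0.013, and 0.13 with slide as a fixed block. Cab39l, which encodes a scaffold that activates SPAK and OSR1, stood at 0.28 ± 0.10 (limma adjusted p = 0.376). Ppp1cb, which encodes a catalytic subunit of protein phosphatase 1, stood at 0.30 ± 0.14 (adjusted p = 0.453), with other probes at -0.27 and 0.12, and at 0.58 with slide as a fixed block. Oxsr1, the gene of OSR1, stood at 0.32 ± 0.16 (adjusted p = 0.474) and at 0.65 with slide as a fixed block. Phosphorylation itself was not measured by these arrays.

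Of the 16 tested genes of hormone receptors and cAMP signalling, 7 were higher and 9 lower, with a median of -0.051, and -0.043 with slide as a fixed block. Hsd11b2, the enzyme that shields the mineralocorticoid receptor from glucocorticoids, stood at 0.27 ± 0.14 (limma adjusted p = 0.471) and at 0.49 in the block fit. Gnas, which encodes the stimulatory G protein subunit, stood at 0.20 ± 0.12 (adjusted p = 0.545), with other probes at -0.050 and 0.49, and the block fit gave 0.42. Pde4d, which encodes a cAMP-degrading phosphodiesterase, stood at 0.22 ± 0.14 (adjusted p = 0.566), with other probes from -0.12 to 0.37.

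Of 9 tested transcription factors of these segments, 4 were higher and 5 lower. Their median of -0.10 turned to 0.22 with slide as a fixed block. Vehicle array 3 held the lowest value for 6 of the 9 (66.7%), against 34.3% of all genes. Tfcp2l1 stood at -0.22 ± 0.12 (limma adjusted p = 0.501), and at -0.015 in the block fit, and Tfap2b at 0.20 ± 0.18 (adjusted p = 0.671). Of 4 macula densa genes 2 were tested: Ptges, a prostaglandin E synthase gene, stood at 0.15 ± 0.15, and at -0.074 with slide as a fixed block. Ptgs2, the inducible cyclooxygenase gene, did not pass (adjusted p = 0.422) and, like Kcnj10, met the filter through the vehicle arrays, passing the background test in 1 of 3 phenylbutazone and 3 of 3 vehicle hybridisations. Its recorded log2 levels were -5.30, -7.67 and -5.19 in phenylbutazone, against -3.88, -5.05 and -4.20 in vehicle, and no difference is given.

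Marker lists of the segments and of other cell types were read beside these values, and their part in the results was not tested. Of 10 tested markers of the thick ascending limb other than the 8 genes, 7 were higher. Their median was 0.21, and 0.40 with slide as a fixed block. Vehicle array 3 held the lowest value for 6 of these 10 (60.0%), against 34.3% of all genes. Of 10 tested markers of the distal convoluted tubule, 1 was higher and 9 lower, where 52.8% of all genes were higher. The median was -0.058, the groups lay apart for 0 of the 10, and 0 had an unadjusted limma p under 0.05. With slide as a fixed block the median was -0.077 and the signs were mixed. Vehicle array 3 held the lowest value for 1 of the 10. Trpm6 and Klhl3, markers of that segment, had no probe named through RefSeq. The 14 proximal tubule markers had a median of 0.020, and the 10 markers of the thin limb and inner medulla one of 0.11. Of the 13 marker lists, that of tubular injury had the median farthest from 0, at 0.60, with 7 of 9 higher. Their mean centred level was 0.13 to 0.74 on phenylbutazone arrays and -0.46 to -0.33 on vehicle arrays. On vehicle arrays 1, 2 and 3 that level was -0.46, -0.33 and -0.33, and the median of the injury list was 0.88 with slide as a fixed block. Of 10 intercalated cell markers, 7 were higher, with a median of 0.16, and 0.40 with slide as a fixed block. The groups lay apart for 5 of these 10, 4 higher and 1 lower, against 21.5% of all genes. The same 5 had an unadjusted limma p under 0.05, against 12.2% of all genes, and 0 passed after adjustment. On the injury list the groups lay apart for 5 of 9 and 6 had an unadjusted p under 0.05, all higher, and 0 passed. Of 9 endothelial markers, 3 were higher and 6 lower, with a median of -0.19. Erythrocyte markers had a median of 0.44 (6 of 7 higher). Leukocyte markers had a median of 0.059 (5 of 8 higher) that turned to -0.13 with slide as a fixed block.

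**Figure D5:**
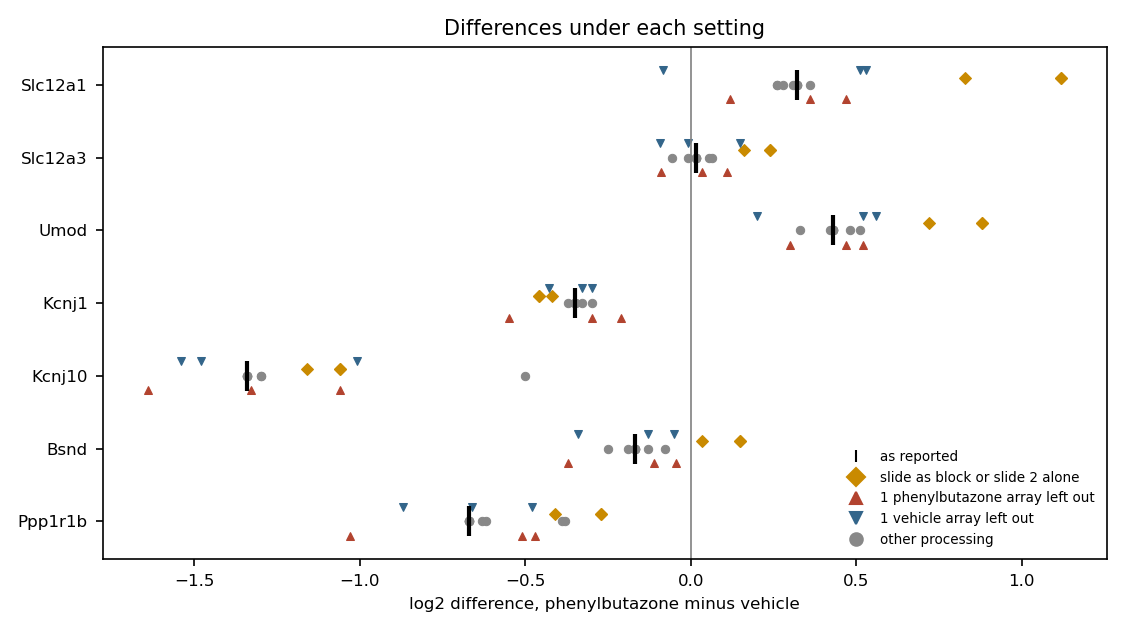
Log2 difference of phenylbutazone minus vehicle (x axis) for the 7 tested genes under every setting tried, with the reported value as a black bar and the left-out arrays, slide fits and other processing as symbols. Umod stays above 0 and Kcnj1 and Ppp1r1b stay below 0 in all settings, whereas Slc12a1, Slc12a3 and Bsnd cross 0. The Kcnj10 values lie below 0 where given, but all reuse phenylbutazone spots that were not well above background.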

How the data were processed

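Agilent Feature Extraction 10.7 produced the spot values, per the submitters' processing notes. Per the file headers, the processed intensity of a spot is background-subtracted and detrended within its array, with no step between arrays. The authors' deposited table of processed values gives 1 ratio for each probe, found here to be the processed intensity over 1.001 to 1.003 times its array's 75th percentile, with column medians of 0.105 to 0.110; its log2 values were tried as an alternative. The probe layout names build rn4, and its coordinates are not used here. Dim-spot flags of another deposited column are 0 or 1 calls.

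Control spots and 40 probes with an outlier flag were left out, no spot was saturated, and the filter on dim spots (well above background on 3 arrays or more) kept 41006 probes, 66.6%. RefSeq accessions named 28206 probes (45.8%), and the brightest probe stood for a gene. A probe without such a name was counted under its printed identifier. Of the 29938 genes tested, 12155 had a symbol and 17783 did not, and the shares over all genes cover both. Differences were fitted with limma 3.58.1 (lmFit, eBayes, two-sided) in R 4.3.3 on the log2 scale, and p-values were adjusted by Benjamini-Hochberg over 29938 genes. The fit was tested on simulated data. The 8 genes, the lists and the rule for named genes (all 8; in each list those past the threshold or else the 3 of smallest p; the 5 nearest patterns) were chosen with earlier results of these data known. One gene that the rule names is not reported here. The motifs and promoters shown were chosen after the values were seen. The design text calls the 3 arrays of each group biological replicates. Slide and scan day divide the arrays alike.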

Additional observations from a re-analysis of the deposited data

How the results depend on the processing

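Of the 7 tested genes, 0 passed limma's threshold in any of the 18 alternatives. Pvalb was fitted only without the filter on dim probes, where it did not pass. The directions of Umod (0.20 to 0.88), Kcnj1 (-0.55 to -0.21) and Ppp1r1b (-1.03 to -0.27) held in all 18 alternatives. Kcnj10 stood at -1.64 to -0.50 in the 17 alternatives that gave a value. Each of those reuses phenylbutazone spots that were not well above background, so they cannot check its direction. Kcnj10 had no value where all 6 arrays had to be well above background. The Slc12a3 difference changed sign with quantile normalization (-0.056), with the mean of its probes (-0.0099) and when an array was left out (-0.094 to 0.15). That of Bsnd changed sign with slide as a fixed block or slide 2 alone (0.15 each) and as a random block (0.034), and that of Slc12a1 on leaving out arrays (-0.084 to 0.53, the lowest without vehicle replicate 3). The median of the 7 genes was 0.15 with slide as a fixed block and on slide 2 alone, and -0.37 to -0.046 with an array left out. Over all genes, where 0 passed, limma called 2 with normexp, 1 with quantile normalization, 8 with an intensity trend, 1 with slide as a random block and 0 to 814 with an array left out, the highest without vehicle replicate 3, which leaves each group on a slide of its own. In that setting 2 pathway genes passed (0 to 2 over left-out arrays), Ptger3 at 0.69 (limma adjusted p = 0.0430) and Kcnma1 at -0.80 (0.0344). Ptger3 stood at 0.26 on all 6 arrays without a block and turned to -0.58 with slide as a fixed block. Kcnma1 stood at -0.56 and -0.076 in those fits, and its other tested probe stood at 0.80 without a block. On slide 2 alone, 1 vehicle array remains and takes its spread from the other group. The causes of these shifts were not tested.

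With the replicate number as a block, 0 of all genes tested and 0 of the 7 passed, as without it. Deviations from the group means had correlations across genes of -0.0301, 0.0114 and -0.0737 for same-numbered arrays 1, 2 and 3. Differently numbered arrays gave -0.0995 to 0.102. With 3 arrays a group, these values cannot decide whether the animals were paired. Faint signal limits Kcnj10, Pvalb and the further Ppp1r1b probes.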
